A study of Saccharomyces cerevisiae with 18 samples.

Results

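The comparison described here is the effect of deleting HOG1 in unstressed yeast, across all genes measured. It rests on 6 of the 18 libraries of the series, chosen by their labels: 3 HOG1-KO basal libraries and 3 WT basal libraries of the second of 2 experiments. HOG1-KO is the strain BY4741 with the deletion hog1::KAN, and WT is BY4741 with HOG1 intact. Both were grown in YPD, a rich glucose medium, and harvested untreated in exponential phase at an OD660 of 0.6. The samples of each group are biological triplicates per the labels, and whether the deletion triplicates come from 1 clone is not given in the sources used here. RNA was selected for poly(A) tails, made into strand-specific Lexogen CORALL libraries and sequenced as 50 bp single-end reads. For comparison, 3 HOG1-KO and 3 WT libraries of the same experiment, harvested after 15 min in 0.4 M NaCl, and 3 salt-treated and 3 untreated WT libraries of the first experiment, made with a TruSeq stranded kit, were read as well.

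Hog1 is the mitogen-activated protein kinase of the high osmolarity glycerol pathway. The Sln1 and Sho1 branches of this pathway activate the kinase Pbs2, which activates Hog1, and active Hog1 raises glycerol synthesis and the transcription of stress genes. The Sho1 branch shares the kinases Ste20 and Ste11 with the pheromone response and filamentous growth pathways, which act through the kinases Fus3 and Kss1 and the transcription factors Ste12 and Tec1. Loss of Hog1 is known to let osmotic stress reach the pheromone and filamentous growth pathways.

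The 6 basal libraries held between 11135883 and 16187453 counts. HOG1 had 0, 1 and 0 counts in the HOG1-KO libraries, against 3195, 2559 and 2997 counts in the WT libraries, which matches the labels. The depth-scaled ratio of WT over HOG1-KO was 8855, with an exact 95% interval from 1589 to 349793 that covers counting error only. LEU2, MET17 and URA3, which are deleted in BY4741, had 0 counts in all 6 libraries, while HIS3, of which BY4741 is known to keep a part, had 1031 to 1167 counts in HOG1-KO and 758 to 1143 counts in WT libraries. The summed level of 7 a-specific markers of this MATa strain was 4784 to 5388 CPM (counts scaled by library size) in HOG1-KO and 4003 to 5645 CPM in WT libraries. WT replicate 1 stood apart from the other WT libraries, with median log2 deviations from the group mean of -0.44 for glycolysis genes, -0.36 for cell wall integrity genes and 0.19 for ribosome biogenesis genes. Its deviations correlated at r = 0.76 with those of WT salt replicate 2, across 6107 genes that are not independent replicates. Counts of calls are therefore also given without these 2 libraries.

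Few genes passed the test in unstressed cells. Genes were called at a Benjamini-Hochberg adjusted p under 0.05 in edgeR's quasi-likelihood test, and changes are log2 fold changes of HOG1-KO over WT ± standard error. Of 6107 genes tested, 29 rose in HOG1-KO cells (0.475%) and 31 fell (0.508%), HOG1 included, and the strains' libraries did not overlap in any of the 60. Over all genes, the libraries did not overlap for 603 genes higher (9.87%) and 436 genes lower (7.14%) in HOG1-KO cells. PGU1 had the largest called increase, and CWP1 had the largest called decrease after HOG1.

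The number of calls depended on which libraries entered the fit, whose spread is estimated over all 12. Without WT replicate 1 and WT salt replicate 2 together, 352 genes were called higher (5.72% of 6150) and 701 lower (11.4%), including all 29 and all 31 genes called with every library. These 2 libraries were picked because they deviate in these data, and leaving out such libraries tends to lower the estimated spread. The calls kept in that fit are therefore no separate support, and the source of the added calls was not tested. Leaving out WT replicate 1 alone gave 33 higher and 45 lower, and leaving out WT salt replicate 2 alone, a choice made after seeing the data, gave 49 and 75. Without WT replicate 2, 8 genes were called higher and 15 lower, of which 7 and 15 were among those called with every library. A set of 19 genes passed whichever of the 6 basal libraries was left out, among them PGU1, DAN1, ASG7, CWP1, SED1, HXT1, GPD1, GPP2, RSB1, PNS1, YGP1 and YRO2. The median log2 difference over all genes was 0.02 on the TMM scale, on which differences are given, and 0.17 with library totals as the scaling.

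**Figure D1:**
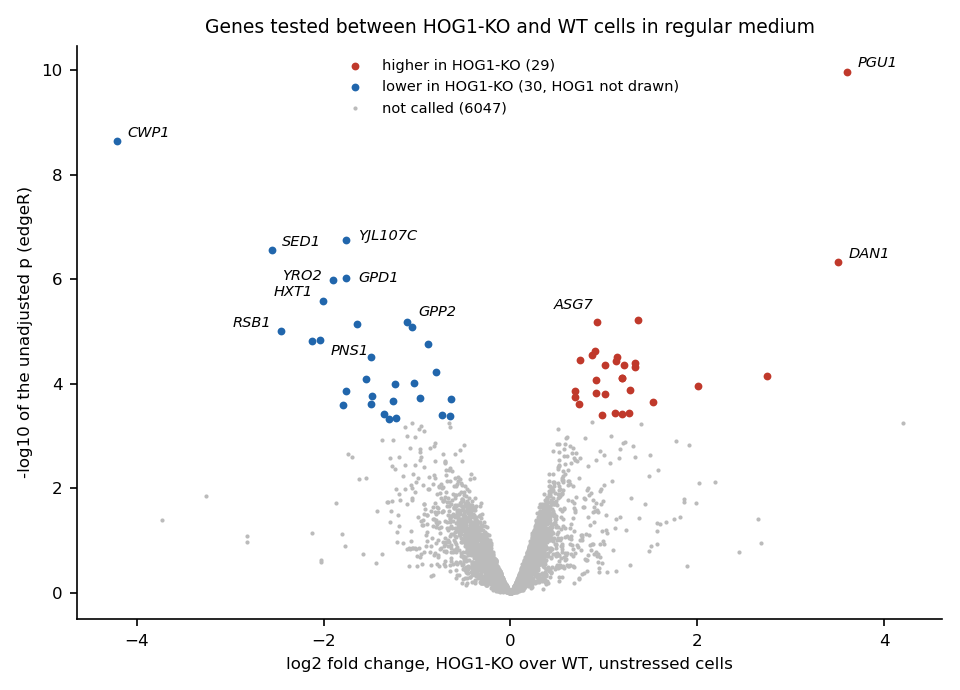
Each point is 1 gene tested between unstressed HOG1-KO and WT cells, with the log2 fold change of HOG1-KO over WT on the x axis and -log10 of the unadjusted edgeR p on the y axis. Red marks the 29 genes called higher and blue the 30 called lower besides HOG1, which is not drawn. PGU1 and CWP1 lie highest on their sides.

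Mating genes were the list with the most genes called higher in unstressed HOG1-KO cells. Of 27 tested genes of cell fusion, agglutination and the pheromone-regulated PRM set, 7 rose and 1 fell (PRM10). Those that rose were FIG1, PRM6, PRM1, FUS2, ASG7, PRM2 and FUS1. The list's median log2 difference was 0.49 against 0.02 over all genes. Over all genes tested, 0.475% were called higher and 0.508% lower, and list counts below are to be read beside these shares. The lists were chosen with earlier results of these data known. In the pheromone signalling core, 1 of 19 tested genes rose, the kinase gene FUS3, and 0 fell, with a median of 0.23. In such bulk samples, more cells expressing a gene and more RNA per cell cannot be told apart.

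The stretches from 300 to 101 bases before the start codons of 5 mating genes are shown because most of them hold repeats of 1 motif. Each is read 5′ to 3′ on the strand of the gene from the RefSeq R64 genome. Capitals mark TGAAACA, the pheromone response element bound by Ste12, or its reverse complement TGTTTCA, and in FUS3 also CATTCT, a form of the Tec1 motif. The FUS1 stretch also holds the Sko1 motif, left in lower case, at -249.
FUS1 (chrIII:71503-71702, plus strand): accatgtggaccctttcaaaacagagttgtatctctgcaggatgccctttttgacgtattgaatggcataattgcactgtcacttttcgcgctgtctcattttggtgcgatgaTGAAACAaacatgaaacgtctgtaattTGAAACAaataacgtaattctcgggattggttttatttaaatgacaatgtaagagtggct
FUS2 (chrXIII:736626-736825, plus strand): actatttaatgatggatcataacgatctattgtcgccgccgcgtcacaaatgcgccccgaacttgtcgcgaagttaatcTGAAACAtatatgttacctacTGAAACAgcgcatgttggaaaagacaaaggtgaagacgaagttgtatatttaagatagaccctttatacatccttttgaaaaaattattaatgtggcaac
FUS3 (chrII:192151-192350, plus strand): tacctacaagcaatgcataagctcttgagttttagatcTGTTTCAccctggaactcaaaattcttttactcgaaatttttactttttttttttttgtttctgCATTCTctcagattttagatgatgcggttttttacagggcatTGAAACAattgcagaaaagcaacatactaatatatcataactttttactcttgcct
PRM1 (chrXIV:110617-110816, plus strand): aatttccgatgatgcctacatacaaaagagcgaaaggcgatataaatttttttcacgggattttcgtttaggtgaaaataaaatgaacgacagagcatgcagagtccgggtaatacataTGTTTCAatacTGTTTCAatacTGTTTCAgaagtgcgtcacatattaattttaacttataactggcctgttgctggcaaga
PRM6 (chrXIII:181176-181375, minus strand): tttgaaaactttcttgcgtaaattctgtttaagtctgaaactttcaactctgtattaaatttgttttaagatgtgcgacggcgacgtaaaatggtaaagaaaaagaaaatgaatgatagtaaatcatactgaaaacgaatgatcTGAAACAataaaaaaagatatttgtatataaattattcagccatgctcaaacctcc

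PRM1 held 3 copies of the Ste12 motif on the opposite strand, at -181, -170 and -159 from its start codon. FUS1 held 2 copies at -187 and -160, FUS2 at -221 and -200, and FUS3 at -262 and -156. In a window of 250 bases before to 50 after the start codon, searched on both strands, TGAAACA was present in 9 of 26 protein-coding genes called higher (34.6%), in 2 of 27 called lower (7.41%) and in 414 of 5665 tested protein-coding genes (7.31%). At least 2 copies were present in 4 of the genes called higher (15.4%), in 0 of those called lower and in 20 of all genes (0.353%). In the 500 bases before the start codon, a window chosen after seeing the data, the motif was present in 46.2% of genes called higher, 3.7% of those called lower and 11.7% of all genes. A match describes the letters and is not a measurement of binding.

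**Figure D2:**
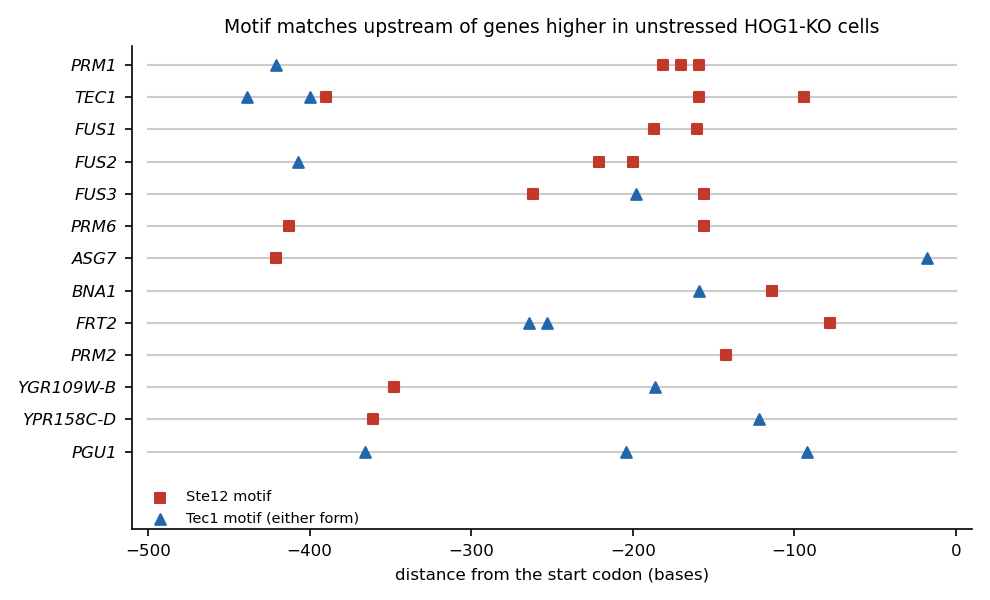
Lines are the 500 bases before the start codon of the 12 genes called higher in HOG1-KO cells that hold a Ste12 match there, with PGU1 added as the last line. The x axis is the distance from the start codon in bases, red squares are Ste12 matches and blue triangles are matches to either form of the Tec1 motif. PRM1 and TEC1 have 3 Ste12 matches each, and PGU1 has 3 Tec1 matches and no Ste12 match.

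FUS1 (YCL027W, chromosome III, 71803 to 73341, plus strand), a membrane protein needed for cell fusion, had 71.3, 78.8 and 72.7 CPM in HOG1-KO cells, against 41.1, 43.9 and 47.7 CPM in WT cells. PRM1 (YNL279W, chromosome XIV, 110917 to 112902, plus strand), which acts in plasma membrane fusion, had 102, 106 and 117 CPM in HOG1-KO cells, against 42.4, 41.3 and 63.7 CPM in WT cells. In both genes the lowest HOG1-KO library was above the highest WT library. The changes were 0.75 ± 0.13 for FUS1 and 1.14 ± 0.19 for PRM1 (edgeR adjusted p = 0.00918 and 0.00853). PRM6, a membrane protein gene induced by pheromone, had 19.4, 16.6 and 25.9 CPM in HOG1-KO cells, against 10.3, 6.55 and 9.52 CPM in WT cells. It too was separated in every library, with a change of 1.22 ± 0.21 (edgeR adjusted p = 0.0100).

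FIG1, needed for calcium entry during mating, had 50.8, 37.8 and 75.1 CPM in HOG1-KO cells, against 27.2, 17.7 and 22.8 CPM in WT cells, where the HOG1-KO libraries were spread more widely. FIG1 changed by 1.27 ± 0.28 and FUS2, which acts in the fusion of mating cells, by 0.98 ± 0.22 (edgeR adjusted p = 0.0418 and 0.0422). PRM2 changed by 0.92 ± 0.18 (edgeR adjusted p = 0.0223). ASG7, an a-specific gene, had 69.5, 77.0 and 77.0 CPM in HOG1-KO cells, against 38.4, 35.1 and 43.6 CPM in WT cells. Its change of 0.93 ± 0.14 (edgeR adjusted p = 0.00341) was called whichever basal library was left out. FUS3, the mitogen-activated protein kinase of the pheromone response, had 176, 192 and 168 CPM in HOG1-KO cells, against 113, 96.3 and 122 CPM in WT cells, a change of 0.69 ± 0.14 (edgeR adjusted p = 0.0212).

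Other mating genes did not pass the test. The kinase gene KSS1 differed by 0.43 ± 0.17 and the transcription factor gene STE12 by 0.25 ± 0.13 (edgeR adjusted p = 0.373 and 0.504). PRM3, needed for nuclear fusion, differed by 1.23 ± 0.31, PRM4 by 0.52 ± 0.15 and PRM8 by 0.64 ± 0.18 (edgeR adjusted p = 0.0964, 0.160 and 0.153). The cell fusion list had 16 genes called higher and 5 lower without WT replicate 1 and WT salt replicate 2, but 9 and 1 without WT replicate 1 alone and 8 and 1 without WT salt replicate 2 alone. The core had 5 and 0 without both, and 1 and 0 without either alone. Over all genes, 5.72% were called higher and 11.4% lower without both. Without WT replicate 2 alone, ASG7 was the 1 of these 8 genes that stayed called, and the edgeR adjusted p of FIG1, FUS1, FUS2, FUS3, PRM1, PRM2 and PRM6 lay between 0.0629 and 0.241. Leaving out HOG1-KO replicate 1, 2 or 3 kept 4, 5 and 3 of the 8 called. Leaving out WT replicate 1 or 3 kept 8 and 6.

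PRM10, a membrane protein gene of the PRM set, had 2.63, 1.83 and 3.53 CPM in HOG1-KO cells, against 6.61, 6.87 and 9.16 CPM in WT cells. It fell in HOG1-KO cells, with a change of -1.49 ± 0.25 (edgeR adjusted p = 0.00853; 0.0549 without HOG1-KO replicate 2). PRM10 (YJL108C, chromosome X, 217705 to 218856, minus strand) overlaps the end of YJL107C (chromosome X, 218853 to 220016, minus strand), which also fell, with a change of -1.76 ± 0.20 (edgeR adjusted p = 0.000275). The overlap runs only from 218853 to 218856, and reads that touch it cannot be assigned with certainty. In salt the changes were -7.01 for PRM10 and -6.62 for YJL107C. Whether both are read from 1 transcript was not tested, and they are counted here as separate calls.

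Among alpha-specific genes, which a cells normally keep low, STE3 rose. STE3 (YKL178C, chromosome XI, 113215 to 114627, minus strand), the receptor for a-factor, had 12.8, 9.07 and 15.8 CPM in HOG1-KO cells, against 4.94, 4.47 and 5.48 CPM in WT cells, a change of 1.33 ± 0.24 (edgeR adjusted p = 0.0105). The alpha-agglutinin gene SAG1 differed by 0.53 ± 0.21 and the alpha-factor gene MF(ALPHA)2 by 1.07 ± 0.31, and neither was called (edgeR adjusted p = 0.397 and 0.152). The summed level of 6 alpha-specific markers was 122 to 144 CPM in HOG1-KO and 71.5 to 93.6 CPM in WT libraries, while MATALPHA1 and MATALPHA2 had 0 counts in all 6. All 3 tested alpha-specific genes were called higher without WT replicate 1 and WT salt replicate 2, but 1 without the first alone and 2 without the second alone. STE3 was not called without WT replicate 2 (edgeR adjusted p = 0.078) or without HOG1-KO replicate 3 (edgeR adjusted p = 0.073).

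Filamentous growth genes included the largest called increase. PGU1 (YJR153W, chromosome X, 722815 to 723900, plus strand), an endopolygalacturonase that breaks down pectin and a known target of the filamentous growth pathway, had 17.8, 16.9 and 23.9 CPM in HOG1-KO cells, against 1.39, 1.96 and 1.51 CPM in WT cells. Every HOG1-KO library was far above every WT library, and the change was 3.61 ± 0.24 (edgeR adjusted p = 3.26e-07). TEC1 (YBR083W, chromosome II, 409169 to 410629, plus strand), a transcription factor of filamentous growth genes, had 99.5, 117 and 109 CPM in HOG1-KO cells, against 73.3, 54.8 and 67.6 CPM in WT cells, with no overlap and a change of 0.73 ± 0.15 (edgeR adjusted p = 0.0302). The flocculin gene FLO11 had 28.0, 33.7 and 26.5 CPM in HOG1-KO cells, against 17.5, 34.3 and 31.7 CPM in WT cells. Its libraries overlapped, and its difference of 0.08 ± 0.26 was not called (edgeR adjusted p = 0.943) and was -0.17 without the deviating WT libraries.

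Of 23 tested filamentous growth genes, 2 rose (PGU1 and TEC1) and 1 fell (RSB1), with a median of 0.22. Over all genes, 0.475% rose and 0.508% fell. Without WT replicate 1 and WT salt replicate 2, 7 were called higher and 2 lower, against 2 and 1 without the first alone and 3 and 1 without the second alone. Shares of all genes without both were 5.72% higher and 11.4% lower. With total counts as the scaling, 1 was called higher and 1 lower. TEC1 was called without WT replicate 1 but in none of the other 5 fits that left out 1 basal library, where its edgeR adjusted p lay between 0.0765 and 0.226.

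The upstream stretches of TEC1 and PGU1 are shown because they differ in these motifs. TEC1 held the Ste12 motif at -390, -159 and -94, and capitals mark the copy that falls in the printed stretch. PGU1 held no TGAAACA in the 500 bases before its start codon and held CATTCT at -366, -204 and -92, of which the copy at -204 is printed in capitals as its reverse complement AGAATG. This form of the Tec1 motif was present in 19.2% of genes called higher, 25.9% of those called lower and 19.1% of all genes in the window of 250 bases before to 50 after the start codon. The other form, CATTCC, was present in 15.4% of genes called higher, 7.41% of those called lower and 10.3% of all genes.
TEC1 (chrII:408869-409068, plus strand): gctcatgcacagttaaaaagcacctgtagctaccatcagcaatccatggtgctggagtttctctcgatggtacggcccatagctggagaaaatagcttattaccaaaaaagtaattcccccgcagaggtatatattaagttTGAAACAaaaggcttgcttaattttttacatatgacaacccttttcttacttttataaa
PGU1 (chrX:722515-722714, plus strand): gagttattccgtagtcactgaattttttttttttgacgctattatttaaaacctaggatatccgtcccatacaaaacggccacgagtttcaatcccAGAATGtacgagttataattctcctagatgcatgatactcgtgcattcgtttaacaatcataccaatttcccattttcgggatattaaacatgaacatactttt

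The other genes that rose belong to several groups. DAN1, a wall mannoprotein of anaerobic growth, had 3.76, 2.96 and 5.32 CPM in HOG1-KO cells, against 0.209, 0.327 and 0.505 CPM in WT cells, a change of 3.50 ± 0.42 (edgeR adjusted p = 0.000471). ANB1, the hypoxic form of translation factor eIF-5A, had 113, 139 and 122 CPM in HOG1-KO cells, against 44.8, 56.5 and 46.7 CPM in WT cells, a change of 1.34 ± 0.23 (edgeR adjusted p = 0.00960). Both were separated in every library, and they were the 2 called of 21 tested genes in the list of seripauperins, TIR and other genes of anaerobic growth, whose median was 0.08. HSP26, a small heat shock protein gene, had 12.8, 13.5 and 12.5 CPM in HOG1-KO cells, against 6.82, 4.91 and 5.84 CPM in WT cells, a change of 1.13 ± 0.20 (edgeR adjusted p = 0.00918), and was the 1 called of 27 tested heat shock and chaperone genes. BNA1 and BNA2, enzymes of NAD synthesis from tryptophan, changed by 0.69 ± 0.14 and 1.12 ± 0.24 (edgeR adjusted p = 0.0253 and 0.0418). ARG1, the argininosuccinate synthase of arginine synthesis, changed by 1.01 ± 0.20 (edgeR adjusted p = 0.0223). Of the 6 fits that left out 1 basal library, BNA2 was called in none, ARG1 and BNA1 in 2 each and DAN1 in all 6. HSP26 was not called without WT replicate 2 (edgeR adjusted p = 0.0735), nor ANB1 without HOG1-KO replicate 2 (edgeR adjusted p = 0.0574).

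Retrotransposon reading frames annotated with a gag or gag-pol product made up 5 of the 29 genes called higher. They were YGR109W-B, YJR027W, YLR227W-B, YLR256W-A and YPR158C-D, with changes between 0.91 and 1.36. YJR027W was called in all 6 fits that left out 1 basal library. YGR109W-B and YPR158C-D were called in 4 of these fits, YLR227W-B in 2 and YLR256W-A in 1. Of 34 tested frames with a gag or gag-pol product, 28 had a positive difference, 5 were called higher and 0 lower, and the median was 0.57. Over all genes, 53.5% had a positive difference and 0.475% were called higher. Copies within a retrotransposon family are nearly identical, so counts of single copies are uncertain, and families were not told apart. The class was chosen after its values were seen. The remaining genes called higher were MAN2, FRT2, YCR102C, YLR460C, the pseudogene YCL074W, YIL080W and YKL177W. YCL074W, YIL080W and YKL177W have no product in the annotation, and whether they derive from retrotransposons was not examined.

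Cell wall genes held the largest called decreases after HOG1 itself. CWP1 (YKL096W, chromosome XI, 261132 to 261851, plus strand), a mannoprotein anchored in the wall, had 9.28, 7.94 and 13.5 CPM in HOG1-KO cells, against 139, 261 and 173 CPM in WT cells. SED1 (YDR077W, chromosome IV, 600793 to 601809, plus strand), a structural wall glycoprotein, had 652, 762 and 715 CPM in HOG1-KO cells, against 2620.1, 6149.6 and 3740.1 CPM in WT cells. In both genes every HOG1-KO library lay far below every WT library, and WT replicate 2 was the highest. The changes were -4.22 ± 0.34 for CWP1 and -2.55 ± 0.29 for SED1 (edgeR adjusted p = 4.69e-06 and 0.000343). CWP2, another wall mannoprotein gene, had 1900.4, 1912 and 1953 CPM in HOG1-KO cells, against 3009.7, 6339.8 and 5383 CPM in WT cells, a change of -1.35 ± 0.30 (edgeR adjusted p = 0.0421). YGP1, a secreted glycoprotein gene, had 48.2, 37.7 and 40.6 CPM in HOG1-KO cells, against 126, 157 and 113 CPM in WT cells, a change of -1.64 ± 0.25 (edgeR adjusted p = 0.00342).

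Of 40 tested genes of the cell wall integrity pathway and its targets, 3 fell (CWP1, SED1 and CWP2) and 0 rose, with a median of -0.19. The share of all genes that fell was 0.508%. YPS3, a yapsin protease gene of this list, had 32.1, 37.1 and 38.2 CPM in HOG1-KO cells, against 53.5, 89.8 and 64.9 CPM in WT cells, and its difference of -0.95 ± 0.22 was not called (edgeR adjusted p = 0.0587). The list had 17 genes called lower and 2 higher without WT replicate 1 and WT salt replicate 2, where all genes had 11.4% and 5.72%. It had 4 and 0 without the first alone and 7 and 0 without the second alone. CWP2 was called without WT replicate 1 but in none of the other 5 fits that left out 1 basal library, where its edgeR adjusted p lay between 0.131 and 0.241.

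The genes called lower also included HPF1, FIT1, OCH1 and MNN1, which were set together after their values were seen. The mannoprotein gene HPF1 changed by -1.30 ± 0.29 and FIT1, a wall mannoprotein that retains siderophore-bound iron, by -1.25 ± 0.26 (edgeR adjusted p = 0.0489 and 0.0273). FIT1 was the 1 called of 29 tested iron regulon genes, whose median was -0.15. OCH1 and MNN1, mannosyltransferases of the Golgi, changed by -0.64 ± 0.13 and -0.65 ± 0.14 (edgeR adjusted p = 0.0255 and 0.0430). HPF1 and OCH1 were each called in 1 of the 6 fits that left out 1 basal library, and MNN1 was called in none.

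GPD1 and GPP2, which encode an enzyme for each step of glycerol synthesis, fell in unstressed HOG1-KO cells. GPD1 (YDL022W, chromosome IV, 411825 to 413000, plus strand), the glycerol-3-phosphate dehydrogenase, had 29.0, 30.3 and 29.2 CPM in HOG1-KO cells, against 74.5, 122 and 104 CPM in WT cells, a change of -1.76 ± 0.22 (edgeR adjusted p = 0.000801). GPP2 (YER062C, chromosome V, 279930 to 280682, minus strand), a glycerol-1-phosphatase, had 11.7, 10.7 and 10.8 CPM in HOG1-KO cells, against 22.6, 23.6 and 25.1 CPM in WT cells, a change of -1.10 ± 0.17 (edgeR adjusted p = 0.00341). The HOG1-KO libraries were nearly level in both genes and lay below all WT libraries. GPD1 and GPP2 were the 2 called of 14 tested genes of glycerol synthesis, transport and breakdown, whose median was -0.20. The share called lower over all genes was 0.508%. Both genes were called whichever basal library was left out. Without WT replicate 1 and WT salt replicate 2, 5 genes of the list were called lower and 0 higher, where 11.4% of all genes were called lower. Without the first alone 2 were called lower, and without the second alone 4.

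Of 34 tested genes reported to need Hog1 for their osmostress induction, 5 fell (CWP1, GPD1, YJL107C, GPP2 and GRE2) and 0 rose. All genes had 0.508% called lower. The list's median was -0.32 against 0.02 over all genes. GRE2, a methylglyoxal reductase, had 53.7, 39.6 and 36.4 CPM in HOG1-KO cells, against 80.1, 93.6 and 92.7 CPM in WT cells, a change of -1.04 ± 0.20 (edgeR adjusted p = 0.0169). Several genes known for strong induction by salt did not pass the test. STL1, the glycerol importer, had 1.5, 1.66 and 1.52 CPM in HOG1-KO cells, against 1.04, 4.47 and 1.08 CPM in WT cells, where WT replicate 2 alone lay above the HOG1-KO libraries. Its difference was -0.38 ± 0.49 (edgeR adjusted p = 0.821) and 0.55 without WT replicate 2. HSP12, a membrane stress protein gene, differed by -0.02 ± 0.35, the catalase gene CTT1 by 0.00 ± 0.18 and the sodium pump gene ENA1 by -0.36 ± 0.32 (edgeR adjusted p = 0.993, 0.997 and 0.721). With total counts as the scaling, HSP12 was at 0.14 and CTT1 at 0.15. The list had 10 genes called lower and 0 higher without WT replicate 1 and WT salt replicate 2, where 11.4% of all genes were called lower. It had 5 lower without the first alone and 8 without the second alone. GRE2 was not called in 4 of the 6 fits that left out 1 basal library (edgeR adjusted p from 0.0662 without WT replicate 3 to 0.124 without HOG1-KO replicate 3), and the other 4 genes were called in all 6.

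The stretch from 300 to 101 bases before the GPP2 start codon is shown because it holds stress motifs close together. Capitals mark CCCCT, the reverse complement of the Msn2 and Msn4 motif AGGGG, at -274 and the Sko1 motif TGACGT at -253, which overlaps a match to the Pho4 motif CACGTG at -257.
GPP2 (chrV:280783-280982, minus strand): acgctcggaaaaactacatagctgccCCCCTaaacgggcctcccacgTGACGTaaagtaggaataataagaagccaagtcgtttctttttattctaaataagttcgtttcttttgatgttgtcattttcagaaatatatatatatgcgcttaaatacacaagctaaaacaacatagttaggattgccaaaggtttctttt

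In the window of 250 bases before to 50 after the start codon, AGGGG was present in 14.8% of genes called lower, 7.69% of those called higher and 21.8% of all genes, and TGACGT in 7.41% of genes called lower, 3.85% of those called higher and 7.71% of all genes. In the 500 bases before the start codon, AGGGG was present in 48.1% of genes called lower, 23.1% of those called higher and 34.4% of all genes. TGACGT was present there in 29.6% of genes called lower, 26.9% of those called higher and 13.4% of all genes. CACGTG was present there in 7.41% of genes called lower, in 0 of those called higher and in 6.25% of all genes.

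**Figure D3:**
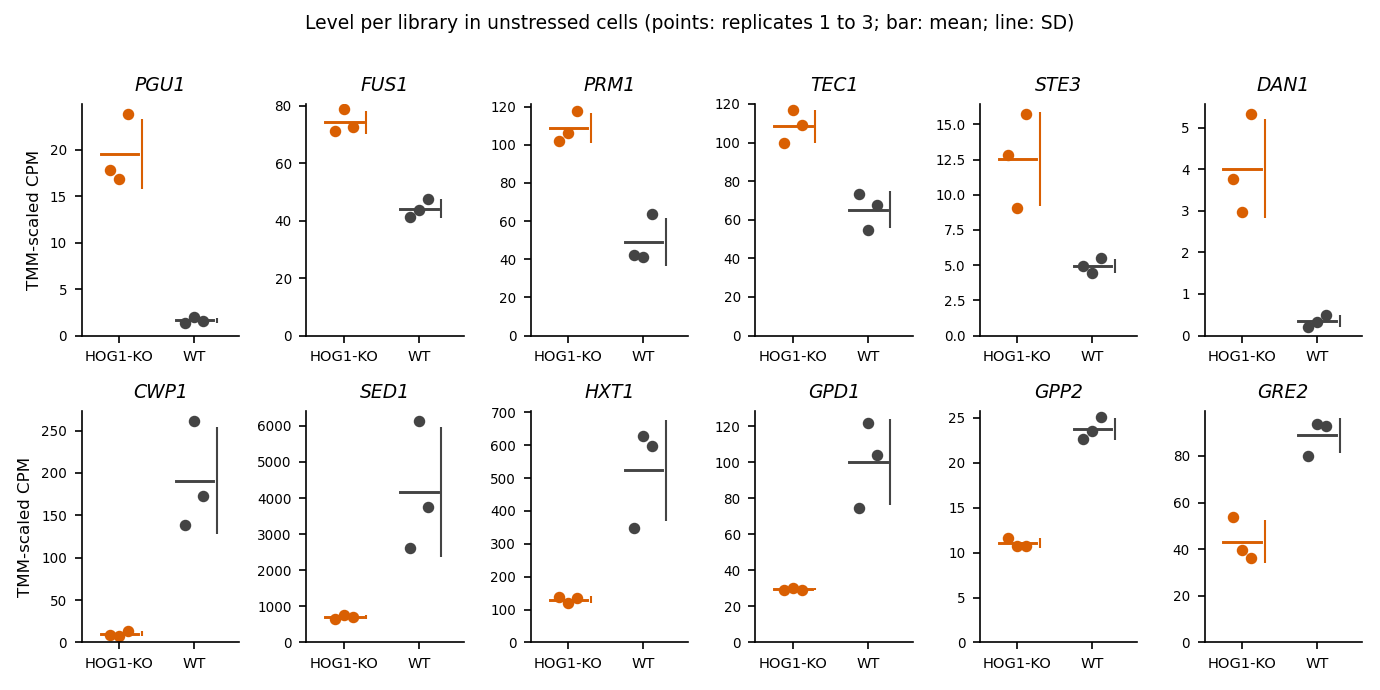
Points are TMM-scaled CPM of the 3 HOG1-KO libraries (orange, left) and the 3 WT libraries (grey, right) of unstressed cells, horizontal bars are means and vertical lines are SD. Genes called higher in HOG1-KO cells are in the upper row and genes called lower in the lower row, and the strains do not overlap in any panel. In SED1, HXT1 and GPD1 the WT libraries are spread more widely than the HOG1-KO libraries.

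The genes called lower also included several that encode transporters and membrane proteins, set together after their values were seen. HXT1 (YHR094C, chromosome VIII, 290913 to 292625, minus strand), the low-affinity glucose transporter of cells in high glucose, had 138, 119 and 134 CPM in HOG1-KO cells, against 347, 627 and 596 CPM in WT cells. Every HOG1-KO library was below every WT library, and the change was -2.01 ± 0.27 (edgeR adjusted p = 0.00174). HXT1 was the 1 called of 21 tested hexose transporter and glucose sensor genes, whose median was 0.23. RSB1, which exports sphingoid long-chain bases, had 0.940, 0.610 and 1.45 CPM in HOG1-KO cells, against 5.57, 6.33 and 5.05 CPM in WT cells, a change of -2.45 ± 0.38 (edgeR adjusted p = 0.00394). PNS1, related to choline transporters, had 6.96, 5.58 and 6.29 CPM in HOG1-KO cells, against 17, 31.0 and 30.0 CPM in WT cells, a change of -2.04 ± 0.32 (edgeR adjusted p = 0.00539). YRO2, a plasma membrane protein gene, changed by -1.90 ± 0.24 and the polyamine transporter gene TPO2 by -1.54 ± 0.29 (edgeR adjusted p = 0.000801 and 0.0149). NCE102, a protein of the eisosomes of the plasma membrane, had 265, 188 and 272 CPM in HOG1-KO cells, against 387, 687 and 621 CPM in WT cells, a change of -1.23 ± 0.27 (edgeR adjusted p = 0.0460).

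RSB1 and CSH1, a subunit of the synthase of mannosylated inositol phosphorylceramide, were the 2 called of 22 tested sphingolipid and lipid transport genes, whose median was -0.22. CSH1 changed by -0.80 ± 0.15 (edgeR adjusted p = 0.0126). Without WT replicate 1 and WT salt replicate 2, 11 genes of the list were called lower, where all genes had 11.4%. Without the first alone 3 were called lower, and without the second alone 4. MPC3, a subunit of the mitochondrial pyruvate carrier, changed by -1.76 ± 0.35, NCA3, of the SUN family, by -1.79 ± 0.38 and OM14, of the mitochondrial outer membrane, by -0.73 ± 0.16 (edgeR adjusted p = 0.0212, 0.0306 and 0.0426). Of the 6 fits that left out 1 basal library, NCE102, NCA3 and OM14 were called in 1, TPO2 in 2, and MPC3 and CSH1 in 3. The remaining genes called lower were RPS22B, YDR222W, YLR366W, 3 small nucleolar RNAs and HBN1, which lies next to FUS1 on the other strand.

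The small nucleolar RNAs snR56, snR71 and snR161, of a class that guides the modification of ribosomal RNA, changed by -2.12 ± 0.34, -1.48 ± 0.30 and -1.50 ± 0.31 (edgeR adjusted p = 0.00539, 0.0240 and 0.0297). Of the 6 fits that left out 1 basal library, snR56 was called in all 6, snR71 in 2 and snR161 in 1. Of 76 tested identifiers beginning snR, 66 had a negative and 10 a positive difference, 3 were called lower and 0 higher, and the median was -0.72. Over all genes, 53.5% had a positive difference and 0.508% were called lower. The class was chosen after its values were seen, and most of its members carry no poly(A) tail.

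No gene of the HOG pathway other than HOG1 passed the edgeR test in unstressed cells with every library in the fit. Without WT replicate 1 and WT salt replicate 2, CDC42, a GTPase of the Sho1 branch, was called lower (-0.53, against -0.36 ± 0.22 with every library; edgeR adjusted p = 0.00638 and 0.568), and it was not without either alone. Of 24 tested sensors, kinases and phosphatases, 21 had a positive difference, against 53.5% of all genes. Values other than that of HOG1 ran from -0.41 for the phosphatase gene PTP3 to 0.34 for the phosphatase gene PTC1. PBS2, the kinase that activates Hog1, had 70.0, 83.3 and 64.8 CPM in HOG1-KO cells, against 58.8, 57.5 and 65.6 CPM in WT cells, which overlapped (0.26 ± 0.13, edgeR adjusted p = 0.512). The 13 transcription factors and effector kinases of Hog1 all had positive differences on the TMM scale, from 0.01 to 0.83 for the kinase gene RCK1, with a median of 0.29 and 0 called. RCK1 was called without WT replicate 1 and WT salt replicate 2 (0.99, edgeR adjusted p = 0.0288). With the median-ratio scaling of DESeq2 12 of the 13 were positive, and without WT replicate 2 11 were. The positive shares of all genes in these fits were 50.5% and 50.0%. The tested neighbours within 5 genes of HOG1 on chromosome XII were not called with every library, with the lowest values at the wall protein gene CCW12 (-0.62 ± 0.30) and the peroxiredoxin gene AHP1 (-0.52 ± 0.19; edgeR adjusted p = 0.484 and 0.368). CCW12 was called lower without WT replicate 1 and WT salt replicate 2 (-0.86, edgeR adjusted p = 0.000292).

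Broad gene groups had few or no calls with every library in the fit. Targets of the general stress factors Msn2 and Msn4 had 1 higher (HSP26) and 2 lower (YGP1 and GPP2) of 41 tested, with a median of -0.05, and 0.11 with total counts as the scaling, where all genes had 0.17. All 10 histone genes had negative differences, with a median of -0.39 and 0 called, while 53.5% of all genes had a positive difference. Cytosolic ribosomal protein genes had a median of -0.26 and 1 of 137 called lower, RPS22B (-0.97 ± 0.20, edgeR adjusted p = 0.0255), and ribosome biogenesis genes a median of 0.10 and 0 of 101 called. Without WT replicate 1 and WT salt replicate 2, 18 of 26 glycolysis genes, 18 of 39 respiratory chain genes and 31 of 137 ribosomal protein genes were called lower. In the same fit 13 of 101 ribosome biogenesis genes were called higher. Of all genes in that fit, 11.4% were called lower and 5.72% higher. The 4 list counts were 1, 1, 1 and 0 without WT replicate 1 alone, and 2, 2, 1 and 0 without WT salt replicate 2 alone. The median of glycolysis genes was -0.51 without both libraries, -0.52 without WT replicate 1 alone and -0.35 without WT salt replicate 2 alone. For ribosomal protein genes, whose median was -0.26 with every library, it was -0.13, -0.13 and -0.29 in these fits. The glycolytic gene TDH3 differed by -0.48 ± 0.25 with every library and by -0.67 without those 2 (edgeR adjusted p = 0.514 and 0.00115). The actin gene ACT1 differed by -0.46 ± 0.25 and -0.66 in the same fits (edgeR adjusted p = 0.540 and 0.00338).

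**Figure D4:**
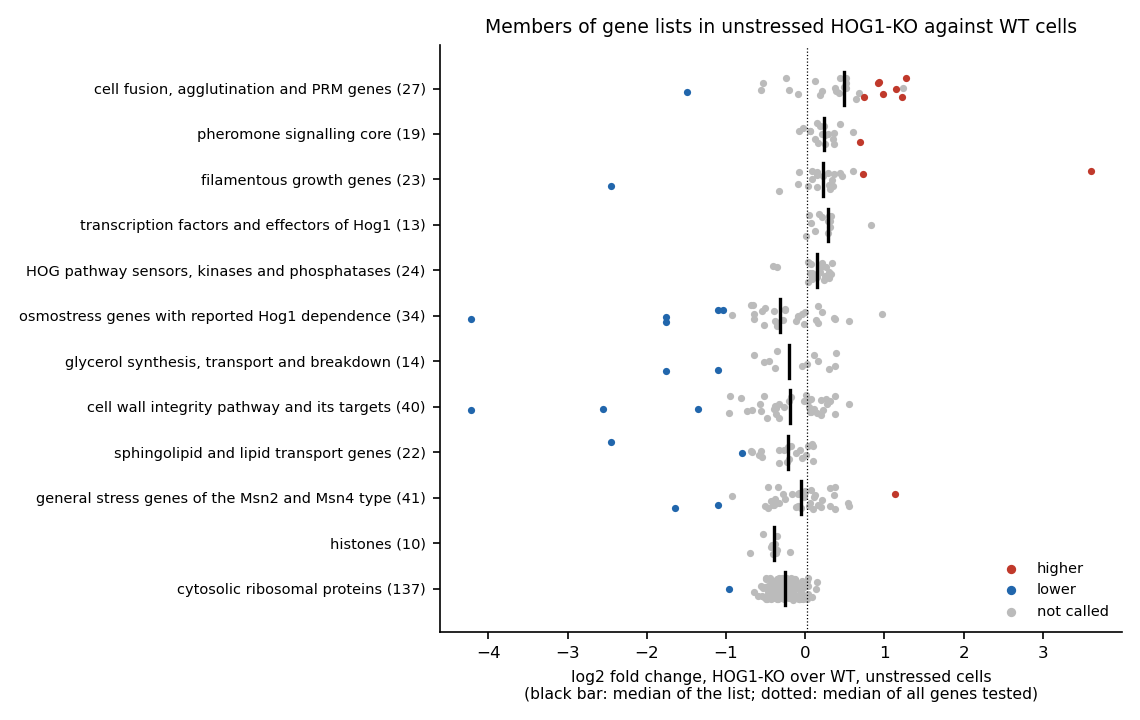
Each point is a tested gene of the list named on the left, with the number tested in parentheses, and the x axis is the log2 fold change of HOG1-KO over WT in unstressed cells. Red and blue points are genes called higher and lower, black bars are list medians and the dotted line is the median of all genes. The cell fusion list has 7 red points and the osmostress list 5 blue points, and HOG1 lies beyond the axis.

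The genes called in unstressed cells were also read in the salt-treated cells. The 2 comparisons contrast different libraries, but their spread is estimated in the same fit of all 12. Per the labels' protocols, cells with and without salt were harvested from each triplicate, so the 2 comparisons are not independent. Deviations from the group means of same-numbered WT libraries of the 2 media correlated at r = -0.54, -0.52 and 0.50, and WT replicate 1 went with WT salt replicate 2, so the WT numbers were not used to pair libraries. In salt, 783 genes rose (12.8%) and 759 fell (12.4%) in HOG1-KO relative to WT cells, together 25.2% of those tested. Of the 29 genes higher in unstressed HOG1-KO cells, 27 were also higher in salt, HSP26 was lower and FRT2 was not called, with a median of 1.69 against -0.02 over all genes. Of the 30 lower genes other than HOG1, 21 were also lower in salt, 4 were higher and 5 were not called, with a median of -2.43.

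The strain effect differed between the media for 29 of the 60 genes, against 9.81% of all genes (4.57% positive and 5.24% negative), in an edgeR test of the difference. The basal libraries by which the 60 were called also enter this test, so the share of all genes is not a neutral background. PRM6 averaged 79.2 ± 15.2 CPM in HOG1-KO cells and 1.78 ± 0.236 CPM in WT cells in salt (SD, n = 3 each), a change of 5.45 against 1.22 in unstressed cells. The difference of these changes was 4.24 ± 0.33 (edgeR adjusted p = 4.84e-07). For HXT1 the change was -5.99 in salt and -2.01 without it, and for GPD1 it was -3.17 and -1.76, with differences of -3.99 ± 0.39 and -1.41 ± 0.30 (edgeR adjusted p = 5.43e-06 and 0.00663). PGU1 changed by 3.56 in salt and 3.61 without it, a difference of -0.05 ± 0.34 that was not called (edgeR adjusted p = 0.968).

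A few genes, chosen after their values were seen, were called in opposite directions in the 2 media. RSB1, NCA3, TPO2 and MNN1 were lower in unstressed and higher in salt-treated HOG1-KO cells, with changes in salt of 0.83, 1.29, 2.94 and 1.15 (edgeR adjusted p = 0.0323, 0.00685, 5.58e-05 and 4.15e-05). HSP26 was higher in unstressed and lower in salt-treated HOG1-KO cells, with a change in salt of -0.54 (edgeR adjusted p = 0.0279). In unstressed cells, the 6 fits that left out 1 basal library called RSB1 in 6, HSP26 in 5, TPO2 in 2, NCA3 in 1 and MNN1 in 0. Changes in salt of single genes were not read with libraries left out. In salt, RSB1 averaged 43.5 ± 4.90 CPM in HOG1-KO and 24.7 ± 10.2 CPM in WT cells (SD, n = 3 each). NCA3 averaged 20.9 ± 1.97 and 8.61 ± 5.27 CPM.

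**Figure D5:**
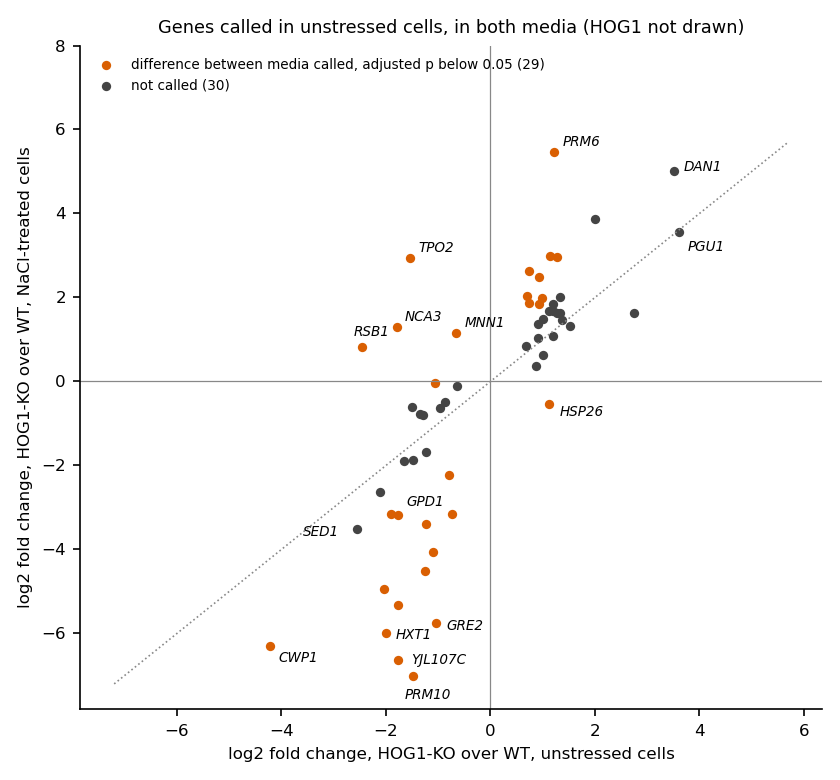
Each point is a gene called in unstressed cells, HOG1 left out, with the log2 fold change of HOG1-KO over WT in unstressed cells on the x axis and in NaCl-treated cells on the y axis. The dotted line marks equal changes, and orange points are the 29 genes whose changes differ at an edgeR adjusted p under 0.05. PRM6 lies far above the line and PRM10, YJL107C and HXT1 far below it, and TPO2, NCA3, RSB1, MNN1 and HSP26 lie in the quadrants of opposite sign.

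The same genes were read in the WT cells of the first experiment, whose libraries are separate from those above. Of 5804 genes tested in both experiments, salt raised 35.5% and lowered 34.1%, and over the 5878 genes tested in the first the shares were 35.4% and 33.8%, together 69.2%. Of the 26 tested genes lower in unstressed HOG1-KO cells, HOG1 left out, salt raised 20 (76.9%) and lowered 5 (19.2%) in WT cells, with a median log2 change of 1.99 against 0.02 over all genes. Of the 24 tested genes higher in unstressed HOG1-KO cells, salt raised 9 (37.5%) and lowered 10 (41.7%) in WT cells, with a median of -0.24.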

How the data were processed

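Per the submitters' processing notes, reads were aligned with HISAT2 2.1.0 to build R64 and counted with featureCounts 1.5.1. The authors deposited raw read counts per gene, 1 table per experiment. The sources used here do not give the annotation release, the strand setting or the treatment of reads with several matches, so counts of overlapping genes and close paralogs are uncertain. No column was left unmapped to a sample (0 columns). Of 7126 gene identifiers 6048 matched the R64 reference.

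The 12 libraries of experiment 2 were fitted together with edgeR 4.0.16 (R 4.3.3, limma 3.58.1), with TMM scaling, filterByExpr and robust quasi-likelihood tests per group contrast, so the groups share 1 estimate of the spread. Benjamini-Hochberg adjustment ran over all tested genes. Standard errors are the absolute log2 fold change over the square root of F, and levels are TMM-scaled CPM. Experiment 1 was fitted alone. The scripts were tested on simulated counts.

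The groups, gene lists and rules were chosen with earlier results of these data known. The named genes are up to 12 called genes per direction with mean log2 CPM of at least 3, up to 4 called members per list, the HOG pathway, the 5 genes on each side of HOG1 and fixed panels. Other genes, including uncalled list members, were named after their values were seen. Promoters were read from the RefSeq R64 genome. Alternatives were DESeq2 1.42.0, other scalings, filters and thresholds, a replicate block and leaving out libraries. Same-numbered HOG1-KO and WT basal libraries did not deviate together, so numbers were not treated as pairs.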

Additional observations from a re-analysis of the deposited data

Results flagged for a closer look

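The strain effect differed between the media for 29 genes called in unstressed cells, by an edgeR test of the difference at an adjusted p under 0.05. Values are the log2 change of HOG1-KO over WT in salt minus that in unstressed cells. Among genes higher in unstressed HOG1-KO cells, the difference was positive, so that the strains were farther apart in salt, at 1.35 for FUS3, 1.91 for TEC1, 1.12 for FUS1, 1.57 for PRM2, 0.91 for ASG7, 1.00 for FUS2, 1.84 for PRM1, 4.24 for PRM6 and 1.68 for FIG1. Among genes lower in unstressed HOG1-KO cells, it was negative at -2.07 for CWP1, -2.89 for PNS1, -3.99 for HXT1, -1.25 for YRO2, -3.56 for MPC3, -1.41 for GPD1, -4.86 for YJL107C, -5.52 for PRM10, -3.25 for FIT1, -2.18 for NCE102, -2.95 for GPP2, -4.72 for GRE2, -1.43 for CSH1 and -2.42 for OM14. It was positive for genes lower in unstressed and higher in salt-treated HOG1-KO cells, at 3.28 for RSB1, 3.09 for NCA3, 4.48 for TPO2 and 1.80 for MNN1. For YDR222W, lower in unstressed HOG1-KO cells and not called in salt, it was 1.01. For HSP26, higher in unstressed and lower in salt-treated HOG1-KO cells, it was -1.66. Groups of 3 libraries were not tested for single deviating values. No cause of these differences was tested.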

How the results depend on the processing

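Per called gene 15 alternatives were run, of which 9 genes entered 14. All 60 kept their direction in each that they entered, and 13 kept their call in each, 18 in each but the test against a 1.5-fold change. DESeq2 called 64 genes higher and 71 lower, including all 29 and 31, and the test against a 1.5-fold change 2 higher and 11 lower. Without WT basal replicate 1 and WT salt replicate 2 the counts were 352 higher and 701 lower in unstressed cells, 1487 and 1437 in salt, and 611 and 637 for the difference between media. Leaving out 1 basal library gave 8 to 33 higher and 14 to 45 lower genes in unstressed cells, and leaving out WT salt replicate 2 alone, chosen after seeing the data, 49 and 75. Leaving out 1 library gave 552 to 1200 higher genes in the salt comparison, and 196 to 589 genes with a positive difference between media, the last 2 ranges highest without WT salt replicate 2. With total counts as the scaling 447 genes were lower in salt. With the replicate block, 23 genes were higher and 21 lower in unstressed cells. Deviations of same-numbered HOG1-KO and WT basal libraries correlated at -0.10, -0.06 and 0.01 across 6107 genes. Whether these libraries share a culture day or preparation was not tested. Each HOG1-KO basal library correlated best with the HOG1-KO salt library of its own number (0.16, 0.33 and 0.18). Same-numbered WT basal and salt libraries correlated at -0.54, -0.52 and 0.50, with WT basal replicate 1 closest to WT salt replicate 2 (0.76) and WT basal replicate 2 to WT salt replicate 1 (0.42), and whether WT numbers are crossed between media was not tested. Counts in experiment 1 stayed within 1.5 times of the values given. Signs turned for 5 genes without a call. With total counts as the scaling CTT1 was 0.15 and HSP12 0.14. Without both deviating libraries CTT1 was 0.060 and FLO11 -0.17. Leaving out 1 library gave -0.16 to 0.13 for CTT1, -0.17 to 0.26 for FLO11, -0.15 to 0.14 for HIS3, -0.22 to 0.25 for HSP12 and -0.73 to 0.55 for STL1. The cause of these changes was not tested. With 3 libraries a group, calls rest on the shared estimate of the spread.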
